A study of Mus musculus with 91 samples.

Results

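The libraries described here come from the epiblast (Epi) of *Dnmt*-null mouse embryos at embryonic day 6.5 (E6.5) and E7.5, and they were chosen by their titles alone. They are 7 of the 91 samples of the series, 3 at E7.5 and 4 at E6.5. Control Epi at the same stages, again 3 and 4 libraries, served as the reference for the normal stage change. The question was which miRNA changes between the stages still took place in embryos without DNA methyltransferases. The labels give C57BL/6 fathers and F1 mothers for all embryos. Per the study's methods, the mothers were B6D2F1 (C57BL/6J crossed with DBA2) and the fathers carried an *Oct4-EGFP* transgene on the C57BL/6J background. The *Dnmt*-null embryos were made by injecting zygotes with the mRNA of a cytosine base editor and sgRNAs that write stop codons into *Dnmt1*, *Dnmt3a* and *Dnmt3b*. They are therefore edited founders, each with edits of its own, and not an inbred mutant line. Epi was parted from extraembryonic ectoderm (Exe) with a needle. Whether a library holds 1 embryo or several is not given in the sources used here, so that the p-values measure the spread between libraries only. The transcripts of the edited genes are not part of a miRNA table, and the genotypes could not be checked from it.

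DNMT1 copies methylation onto newly made DNA strands, and DNMT3A and DNMT3B place it anew when the embryo implants. Mature miRNAs are short RNAs that lower the output of mRNAs carrying a match to their seed, bases 2 to 8 of the miRNA. Between these stages the normal epiblast leaves pluripotency and forms the primitive streak, mesoderm and endoderm. The miR-290-295 cluster marks naive pluripotent cells, the miR-302/miR-367 cluster marks the primed epiblast, and miRNAs of the *Hox* clusters appear with posterior mesoderm. The imprinted *Dlk1-Dio3* domain holds the largest known group of imprinted miRNAs, read from the maternal copy, and the *Sfmbt2* intron holds a rodent-specific group that is abundant in the trophoblast lineage.

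Sequences are shown for the miRNAs on which the stage comparison turns (RefSeq, GRCm38.p6, 5′ to 3′, seed in capitals). The first set holds the pluripotency miRNAs of both clusters with a matched sequence and 1 seed in common, AAGUGCU, because the most abundant members of both clusters fall into this seed family. Cluster members without a matched sequence, such as miR-302a-3p, are not shown.
miR-302b-3p: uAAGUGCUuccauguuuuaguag
miR-302d-3p: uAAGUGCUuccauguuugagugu
miR-291a-3p: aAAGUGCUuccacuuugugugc
miR-294-3p: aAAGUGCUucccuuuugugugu
miR-295-3p: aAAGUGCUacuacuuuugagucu
The miR-302 members lie on the plus strand at chr3:127545275-127545297 (miR-302b-3p) and chr3:127545665-127545687 (miR-302d-3p). The other members lie on the plus strand at chr7:3218968-3218989 (miR-291a-3p), chr7:3220691-3220712 (miR-294-3p) and chr7:3220815-3220837 (miR-295-3p).

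The second set shares the seed AUUGCAC and is spread over the miR-17-92 cluster, its paralogs, the single gene of miR-92b and the miR-302/miR-367 cluster. It is shown because miR-92a-3p was among the most abundant miRNAs here and because its relative miR-92b-3p had one of the clearest differences between *Dnmt*-null and control.
miR-92a-3p: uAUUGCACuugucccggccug
miR-92b-3p: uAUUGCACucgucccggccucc
miR-363-3p: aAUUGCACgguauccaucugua
miR-367-3p: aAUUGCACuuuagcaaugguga
miR-92a-3p is encoded at chr14:115044476-115044496 (plus strand) and at chrX:52741854-52741874 (minus strand). miR-92b-3p lies at chr3:89227126-89227147 (minus strand), miR-363-3p at chrX:52741697-52741718 (minus strand) and miR-367-3p at chr3:127545779-127545800 (plus strand).

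The third set holds the miRNAs that changed with stage in *Dnmt*-null Epi, together with miR-540-3p, which lay closest to the threshold after them.
miR-541-5p: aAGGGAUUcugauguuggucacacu
miR-540-3p: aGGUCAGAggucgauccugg
miR-298-5p: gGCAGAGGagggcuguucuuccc
miR-1983: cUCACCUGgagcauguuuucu
miR-541-5p (chr12:109742422-109742446) and miR-540-3p (chr12:109586122-109586141) lie on the plus strand inside the *Dlk1-Dio3* domain. miR-298-5p (chr2:174267553-174267575) lies on the minus strand in the imprinted *Gnas* region, and miR-1983 (chr13:21896930-21896950) on the minus strand of chromosome 13. The fourth set is a pair from the *Hox* clusters with a common seed, shown because both members rose in control.
miR-10a-5p: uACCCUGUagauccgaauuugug
miR-10b-5p: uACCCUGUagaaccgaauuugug
miR-10a-5p lies at chr11:96317186-96317208 and miR-10b-5p at chr2:74726074-74726096, both on the plus strand.

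Depth moved with the stage. The *Dnmt*-null libraries held 45242, 112818, 66655 and 123169 miRNA counts at E6.5 and 272867, 488108 and 280116 at E7.5. Control libraries held 281158 to 458837 counts at E6.5 and 1623256 to 2325698 at E7.5. A count of 3 in a library, the limit that a count of 0 allows, was worth 23.1 to 64.2 normalized CPM (counts scaled by library size) in the E6.5 *Dnmt*-null libraries. Limits of this kind cover counting error only, since reads were amplified by PCR. E6.5 *Dnmt*-null replicate 1 stood apart, with 247 miRNAs detected against 495 to 560 in the other 3 and a median correlation with them of 0.756 against 0.850 to 0.862. Many of the results that rest on it are given below with and without it, but not all. At E6.5, replicates 1 and 2 deviated alike from their group means across the genotypes (correlations over miRNAs of 0.0368 to 0.122), as did replicates 3 and 4 (0.143 to 0.251), whereas the correlations between these pairs were −0.189 to −0.0646. The labels name no batch for this split.

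In *Dnmt*-null Epi, 2 miRNAs rose and 1 fell between E6.5 and E7.5, 3 of 474 tested (0.633%; higher 0.422%, lower 0.211%), by edgeR's quasi-likelihood test with Benjamini-Hochberg adjustment. miR-1983 and miR-298-5p rose and miR-541-5p fell. In control Epi, the same fit called 115 miRNAs (24.3%), 42 higher (8.86%) and 73 lower (15.4%). The difference between the 2 stage changes was itself called for 45 miRNAs (9.49%), of which 30 (6.33%) had the more positive change in *Dnmt*-null and 15 (3.16%) the more negative one. Thinned to the 45242 counts of the shallowest library, the fit tested 266 miRNAs and called the same 3 in *Dnmt*-null and 75 in control, and the difference for 26. The count in *Dnmt*-null was small and moved with single libraries. It was 9 without E6.5 *Dnmt*-null replicate 1, 6 without replicate 2, 5 without replicate 3 and 1 without replicate 4. It was 0 without any single E7.5 library of either genotype, where 50 to 62 miRNAs had an unadjusted p under 0.05. With a term for the E6.5 split into replicates 1 and 2 against 3 and 4, which was chosen after seeing the data, 7 were called in *Dnmt*-null, including the same 3, and the difference for 69.

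Under the thresholds the study used (an absolute log2 fold change over 0.5 with an unadjusted p under 0.05), 49 miRNAs passed in *Dnmt*-null Epi (10.3%), 29 higher (6.12%) and 20 lower (4.22%). The *Dnmt*-null libraries of the stages did not overlap for 55 of 474 miRNAs (11.6%), with E7.5 above for 40 and below for 15. In control they did not overlap for 216 (45.6%). The log2 fold changes had an SD over miRNAs of 1.27 in *Dnmt*-null and 1.82 in control, while their median SE was close, 0.705 against 0.67.

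Of the 42 that rose in control, 24 had a positive fold change in *Dnmt*-null and 1, miR-298-5p, rose there too. Their median log2 fold change was 2.53 in control and 0.16 in *Dnmt*-null, beside medians over all miRNAs tested of −0.14 and 0.02. For 12 of the 42 the stage changes differed, each time with the smaller change in *Dnmt*-null. Of the 73 that fell in control, 57 had a negative fold change in *Dnmt*-null and 0 were called at an adjusted p under 0.05 in edgeR (5 passed the study's thresholds as lower). Their median was −2.69 in control and −0.48 in *Dnmt*-null, and the stage changes differed for 29, all smaller in *Dnmt*-null. The 42 and the 73 were selected on control libraries that also enter the difference, so that the smaller change in *Dnmt*-null among the 12 and the 29 is largely fixed by that choice and these values are a description only. The *Dnmt*-null libraries of the stages did not overlap in the same direction for 7 of the 42 and 8 of the 73, against 8.44% above and 3.16% below over all miRNAs.

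**Figure D1:**
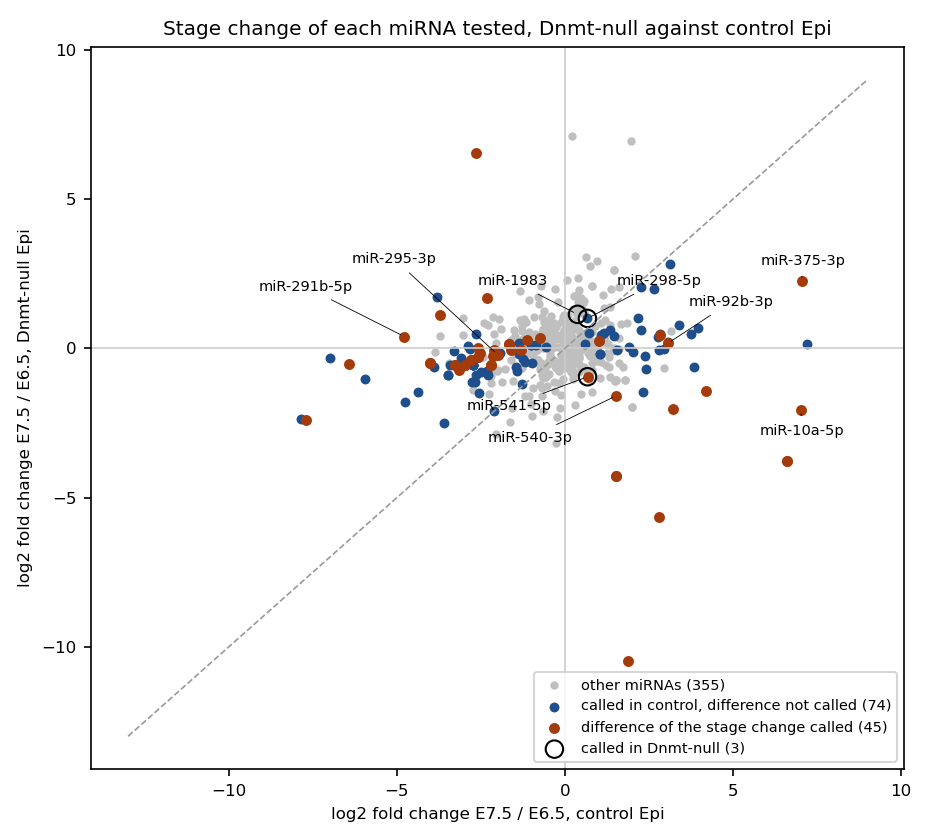
Each point is 1 of 474 miRNAs, with the log2 fold change from E6.5 to E7.5 in control Epi on the x axis and in *Dnmt*-null Epi on the y axis. Blue marks 74 miRNAs called in control without a called difference, red 45 whose stage changes differed and open circles the 3 called in *Dnmt*-null. Most red points lie near 0 on the y axis and far from 0 on the x axis, as miR-291b-5p does (−4.78 in control, 0.40 in *Dnmt*-null).

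miR-1983 had the smallest p among the miRNAs that rose in *Dnmt*-null Epi. Its level was 1262, 1614, 1106 and 1478 normalized CPM at E6.5 and 3145, 3165 and 2742 at E7.5. Every E7.5 library lay above every E6.5 library. The log2 fold change was 1.14 ± 0.22 (SE, adjusted p = 0.0205). In control the level was already 3121 to 3341 normalized CPM at E6.5 and reached 3767 to 4502 at E7.5, a log2 change of 0.37 (adjusted p = 0.264). At E7.5 the *Dnmt*-null libraries thus lay within or below the range of E6.5 control. The difference of the stage changes was not called (0.77, 95% confidence interval 0.10 to 1.44, adjusted p = 0.133). The call held in 8 of 14 fits that left out 1 library and in 9 of the 11 other alternatives, with a log2 fold change of 1.12 to 1.46.

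miR-298-5p, from the *Gnas* imprinted region, held 5604, 8866, 12615 and 10185 normalized CPM at E6.5 and 18691, 19250 and 18167 at E7.5 in *Dnmt*-null Epi. The stages did not overlap, and the log2 fold change was 1.0 ± 0.22 (adjusted p = 0.0406). Control moved from 9831 to 13974 normalized CPM at E6.5 to 18235 to 20014 at E7.5, a log2 change of 0.67 (adjusted p = 0.0349). The difference between the stage changes was 0.33 (95% interval −0.33 to 0.99, adjusted p = 0.535). It was the only miRNA called in the same direction in both genotypes in this fit. The other arm of its hairpin, miR-298-3p, was at 0, 34.0, 0 and 7.70 normalized CPM at E6.5 and at 124, 67.4 and 132 at E7.5 in *Dnmt*-null. All E7.5 values of this arm were the higher ones, but the E6.5 values rest on few counts (log2 fold change 3.06 ± 0.83, adjusted p = 0.105). The call for miR-298-5p held in 5 of 14 leave-one-out fits and 8 of 11 other alternatives.

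miR-541-5p, a *Dlk1-Dio3* miRNA, fell in *Dnmt*-null Epi. Its level was 17174, 25172, 22924 and 17806 normalized CPM at E6.5 and 12408, 9753 and 10082 at E7.5, with every E7.5 library below every E6.5 library. The log2 fold change was −0.95 ± 0.19 (95% interval −1.35 to −0.56, adjusted p = 0.0205). In control the same miRNA rose, from 5829 to 6519 normalized CPM at E6.5 to 9105 to 11126 at E7.5 (0.67, adjusted p = 0.0117). The stage changes thus had opposite signs and differed by −1.62 ± 0.26 (adjusted p = 7.72e-04). At E7.5 the *Dnmt*-null and control libraries overlapped in level, while at E6.5 the lowest *Dnmt*-null library was above the highest control library. The call within *Dnmt*-null was lost in 13 of 14 leave-one-out fits, where the fold change stayed between −0.99 and −0.63 and the adjusted p was up to 0.248.

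miR-540-3p, from the same domain, missed the threshold within *Dnmt*-null. It stood at 770, 926, 971 and 778 normalized CPM at E6.5 and at 350, 239 and 271 at E7.5, again with no overlap (log2 fold change −1.59 ± 0.37, adjusted p = 0.0551). Without E6.5 *Dnmt*-null replicate 1 it passed (−1.59, adjusted p = 0.0037). In control it rose from 190 to 278 normalized CPM to 547 to 813 (1.53, adjusted p = 0.00347). Its stage changes differed by −3.12 ± 0.51 (adjusted p = 7.72e-04). The differences of both miR-541-5p and miR-540-3p were called in all 14 fits that left out 1 library.

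**Figure D2:**
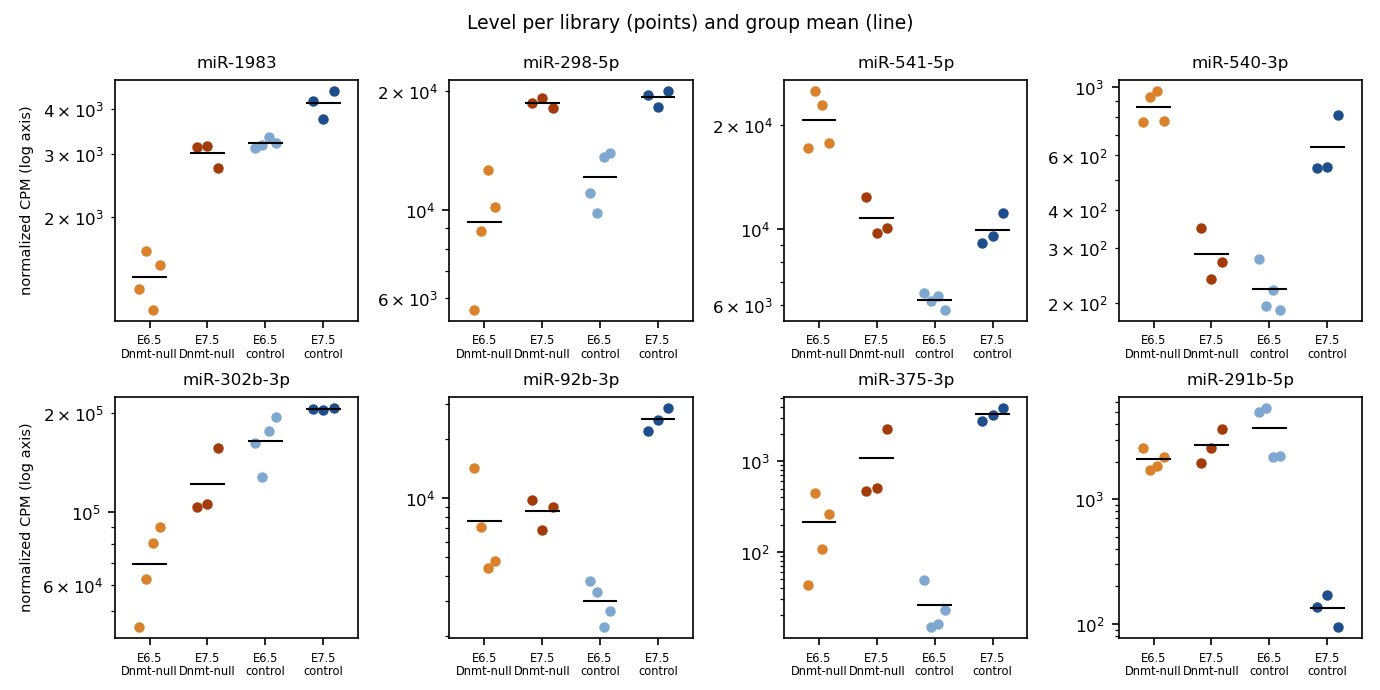
Points are the normalized CPM of single libraries on a log axis and lines are group means, for 8 miRNAs and the 4 groups of stage and genotype. miR-541-5p and miR-540-3p were lower at E7.5 than at E6.5 in every *Dnmt*-null library and higher in every control library, whereas miR-1983, miR-298-5p and miR-375-3p were higher at E7.5 in both genotypes without overlap.

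The miR-290-295 cluster was lower at E7.5 in both genotypes by its median, by less in *Dnmt*-null, where no member was called. Some of its entries have equal highest counts in both genotypes and may hold the same reads. These are miR-290a-5p and miR-290b-3p, miR-290a-3p and miR-290b-5p, miR-292a-5p and miR-292b-3p, and miR-292a-3p and miR-292b-5p. The numbers of members given here count such entries separately, so that they are not independent. Of its 18 members tested, 16 fell in control and 0 were called in *Dnmt*-null by edgeR, where 0 passed the study's thresholds as well. The difference of the stage changes was called for 12, all in the positive direction. The median log2 fold change was −2.35 in control and −0.30 in *Dnmt*-null, beside −0.14 and 0.02 over all miRNAs tested, and 14 of the 18 fold changes in *Dnmt*-null were negative. As a share of each library's counts, the cluster made up 6.00, 10.4, 13.8 and 12.0% in E6.5 and 9.16, 10.2 and 8.15% in E7.5 *Dnmt*-null Epi. The control libraries held 17.2 to 19.4% at E6.5 and 4.89 to 4.99% at E7.5. The E7.5 *Dnmt*-null libraries lay above all E7.5 control libraries, and they overlapped with E6.5 *Dnmt*-null through replicate 1 (6.00%) alone, since the other 3 lay above every E7.5 library. Without replicate 1, 0 members were called in *Dnmt*-null by edgeR, 7 of 18 passed the study's thresholds as lower, the median was −0.50 and 14 differences were called, all positive.

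miR-295-3p was the most abundant member, with 16918, 30335, 31478 and 32855 normalized CPM at E6.5 and 25317, 25936 and 21227 at E7.5 in *Dnmt*-null. The stages overlapped through E6.5 replicate 1 alone, and the log2 fold change of −0.21 had a 95% interval of −0.60 to 0.19. Without that library it was −0.34 (adjusted p = 0.0847). In control it fell from 55406 to 60643 normalized CPM to 14082 to 14824 (−2.0, adjusted p = 2.21e-06), a difference between the stage changes of 1.80 ± 0.27 (adjusted p = 6.32e-04). miR-291b-5p differed most clearly. It held 2566, 1716, 1835 and 2194 normalized CPM at E6.5 and 1955, 2576 and 3659 at E7.5 in *Dnmt*-null (0.40 ± 0.36), against 2174 to 5348 and 94.6 to 171 in control (−4.78). The difference of 5.18 ± 0.54 had the smallest adjusted p of all miRNAs, 1.01e-05.

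The other members shown here had the same order. miR-291a-5p had a log2 fold change of −0.04 in *Dnmt*-null and −1.61 in control, and miR-293-3p of −0.04 and −1.32. miR-290b-3p had 0.15 and −1.66, and miR-295-5p −0.26 and −2.15. For each of these 4 the difference was called, at 1.57, 1.28, 1.81 and 1.89. miR-292a-5p (−0.39 against −2.80) and miR-294-3p (−0.72 against −3.16) had differences of 2.42 and 2.44. The signs of the values nearest to 0 in *Dnmt*-null, those of miR-291a-5p, miR-293-3p, miR-295-3p and miR-290b-3p, turned under other scalings or without single libraries. The difference of miR-293-3p was lost as a call in 5 of 14 leave-one-out fits (adjusted p up to 0.0594) and that of miR-294-3p in 1, without control E7.5 replicate 3. Those of the other 6 members were called in all 14. Without E6.5 *Dnmt*-null replicate 1 the difference of miR-295-3p was 1.58 (adjusted p = 7.35e-06). miR-291a-3p carries the shared seed but was rare, at 0, 178, 216 and 346 normalized CPM at E6.5 and 96.4 to 121 at E7.5, and its difference was not called (1.72, 95% interval −0.29 to 3.73, adjusted p = 0.282).

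The miR-302/miR-367 cluster was the most abundant pluripotency group in *Dnmt*-null Epi at E7.5. Of its 10 members, 9 were tested and 0 were called in *Dnmt*-null by edgeR, while 5 passed the study's thresholds as higher (miR-302b-3p, miR-302b-5p, miR-302c-3p, miR-302c-5p and miR-367-3p) and 0 as lower, against 6.12% and 4.22% over all miRNAs. Its median log2 fold change was 0.76 in *Dnmt*-null and −0.02 in control. Without E6.5 *Dnmt*-null replicate 1 these medians were 0.62 and 0.06. No difference between the stage changes was called for the cluster. The cluster held 5.68, 7.98, 11.3 and 11.8% of counts at E6.5 and 12.0, 13.4 and 18.5% at E7.5 in *Dnmt*-null, each E7.5 library above each E6.5 library. The control libraries held 14.9 to 23.3% at E6.5 and 22.2 to 23.2% at E7.5.

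miR-302b-3p made up most of that share and was the most abundant miRNA over the *Dnmt*-null libraries. It stood at 44593, 62310, 80361 and 90021 normalized CPM at E6.5 and at 103560, 105240 and 156700 at E7.5, with no overlap. The log2 fold change of 0.81 ± 0.20 missed the threshold (95% interval 0.39 to 1.24, adjusted p = 0.0655), and it was 0.70 without E6.5 *Dnmt*-null replicate 1 (adjusted p = 0.0611). Control held 127100 to 193850 normalized CPM at E6.5 and 203630 to 206490 at E7.5 (0.32, adjusted p = 0.295). The difference of 0.49 was not called (95% interval −0.11 to 1.1). miR-302a-3p (0.75 ± 0.39) and miR-302d-3p (0.62 ± 0.33) overlapped between the stages, and miR-367-3p went from 0, 25.5, 54.0 and 30.8 normalized CPM to 79.1, 106 and 107 (1.73 ± 0.72, adjusted p = 0.325). miR-302a-5p, the other arm, fell in control (−0.85, adjusted p = 0.0468) and had 0.12 ± 0.29 in *Dnmt*-null.

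Added over the family with the seed AAGUGCU (5 entries of the table with a sequence), the counts made up 6.53, 9.94, 12.9 and 13.3% at E6.5 and 12.8, 14.3 and 18.3% at E7.5 in *Dnmt*-null. Entries without a matched sequence, such as miR-302a-3p, are not part of these sums. In control the family held 18.7 to 24.9% at E6.5 and 20.9 to 22% at E7.5. The E7.5 control total thus lay within the E6.5 range although miR-295-3p fell. In *Dnmt*-null 2 of the 3 E7.5 totals lay above all E6.5 totals.

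**Figure D3:**
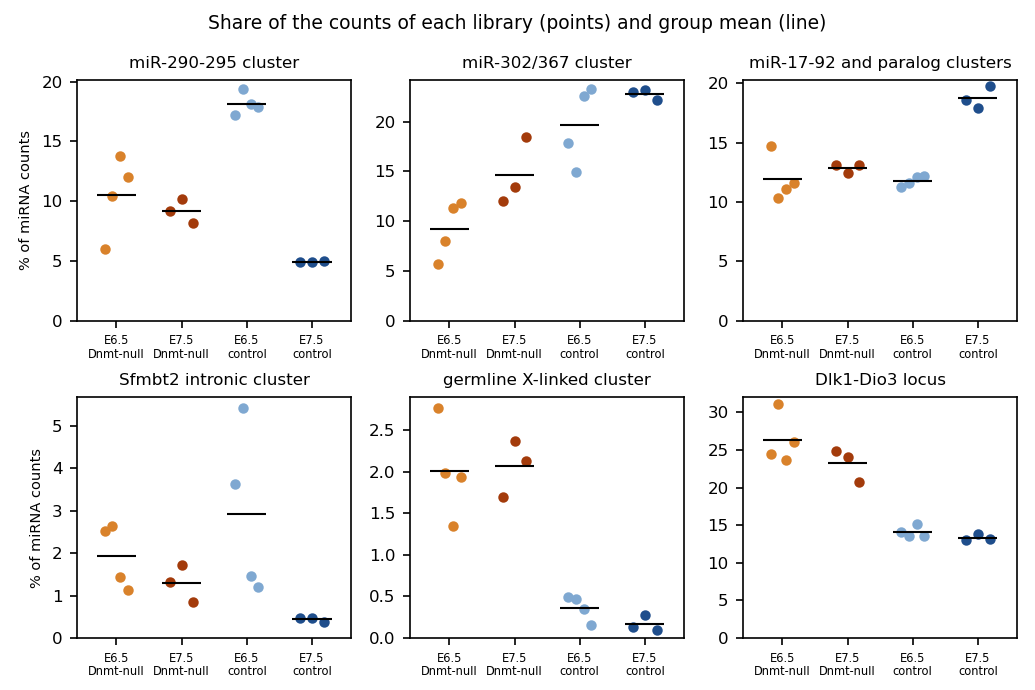
Points are the share (%) of a library's miRNA counts taken by 6 groups of miRNAs, and lines are group means, for the 4 groups of stage and genotype (entries with identical counts are added once). The miR-290-295 share of *Dnmt*-null libraries was 8.15 to 10.2% at E7.5 against 4.89 to 4.99% in control, and the *Dlk1-Dio3* share of *Dnmt*-null libraries was above that of control at both stages.

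In the miR-17-92 cluster and its paralogs, which promote proliferation, 23 of 27 members were tested and 0 were called in *Dnmt*-null. In control miR-92a-3p rose and miR-20b-5p fell, and the difference was called for miR-92a-3p. The group held 10.3 to 14.7% of counts at E6.5 and 12.4 to 13.1% at E7.5 in *Dnmt*-null, and in control 11.3 to 12.2% and 17.9 to 19.8%. miR-92a-3p carried that contrast. It stood at 119300, 73562, 66788 and 75133 normalized CPM at E6.5 and at 106610, 88514 and 99923 at E7.5 in *Dnmt*-null (0.23 ± 0.17, adjusted p = 0.63). Replicate 1 of E6.5 was the highest of the 7, and without it miR-92a-3p rose (0.50, adjusted p = 0.0465). In control miR-92a-3p rose from 66401 to 86283 normalized CPM to 146410 to 179560 (1.03, adjusted p = 2.42e-04). The difference of −0.79 ± 0.24 was called (adjusted p = 0.0453) but lost in 9 of 14 leave-one-out fits (adjusted p up to 0.146). Without E6.5 *Dnmt*-null replicate 1 it was −0.62 (adjusted p = 0.0208).

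miR-92b-3p, from a gene of its own, had the larger contrast. Its *Dnmt*-null values were 14266, 7100, 4385 and 4796 normalized CPM at E6.5 and 9782, 6894 and 9050 at E7.5, which overlapped (0.17 ± 0.33, 95% interval −0.51 to 0.86). In control it rose from 2212 to 3808 normalized CPM to 21804 to 28573 (3.06, adjusted p = 4.59e-06), and the difference was −2.89 ± 0.47 (adjusted p = 7.72e-04). Without E6.5 *Dnmt*-null replicate 1, the highest library, the *Dnmt*-null change was 0.70 (adjusted p = 0.0946) and the difference −2.45 (adjusted p = 5.11e-05). miR-363-3p of the X-linked paralog was at 6630 to 13410 normalized CPM at E6.5 and at 12031 to 14712 at E7.5 in *Dnmt*-null (0.38 ± 0.24, adjusted p = 0.57). The seed family AUUGCAC (6 entries) took 9.96 to 15% of counts at E6.5 and 12.2 to 13.1% at E7.5 in *Dnmt*-null, and 10.2 to 10.8% and 19.2 to 21.2% in control.

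The *Hox*, mesenchymal, muscle and neural lists had no call in *Dnmt*-null Epi by edgeR. In bulk tissue fewer cells of a type and less RNA per cell cannot be told apart. All 3 *Hox* cluster miRNAs that could be tested (of 10) rose in control. None was called in *Dnmt*-null by edgeR, where 0 passed the study's thresholds too, and miR-10a-5p and miR-10b-5p had a called difference. miR-10a-5p gave 0, 1, 4 and 3 counts at E6.5 and 0, 6 and 0 counts at E7.5 in *Dnmt*-null, at or near the limit of 3 counts throughout. In control it rose from 3.68 to 63.8 normalized CPM to 1847 to 3383, a log2 change of 7.03 ± 0.84. miR-10b-5p had 42.8, 93.4, 621 and 38.5 normalized CPM at E6.5 and 158, 30.8 and 32.1 at E7.5 in *Dnmt*-null, against 30.0 to 92.0 and 649 to 1704 in control (4.19, adjusted p = 0.0014). Both differences were called, at −9.09 ± 1.56 and −5.63 ± 1.22. For miR-10b-5p 1 library, E6.5 *Dnmt*-null replicate 3, lay far above the rest of its group, and without it the *Dnmt*-null fold change turned from −1.44 to 0.46. miR-615-3p, in the *Hoxc* cluster, was at 0 to 7.70 normalized CPM over the 7 *Dnmt*-null libraries and at 71.3 to 225 in E7.5 control.

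Of the mesenchymal miRNAs, which mark connective tissue and smooth muscle, 5 of 9 were tested. In control miR-143-3p and miR-145a-3p rose. In *Dnmt*-null 0 were called, while miR-199a-3p and miR-199b-3p, entries with identical counts, passed the study's thresholds as lower and had a called difference. miR-199a-3p stood at 727, 51.0, 148 and 30.8 normalized CPM in E6.5 *Dnmt*-null and at 0, 15.4 and 17.9 at E7.5 (−4.28 ± 1.29, adjusted p = 0.145), and its difference of −5.80 was lost in 8 of 14 leave-one-out fits. Without E6.5 *Dnmt*-null replicate 1, the library with 727, the difference was −4.21 (adjusted p = 0.0737). miR-143-3p rose in control from 33.1 to 69.6 normalized CPM to 184 to 322 (2.34, adjusted p = 0.0424). In *Dnmt*-null it was at 0, 84.9, 162 and 7.70 at E6.5 and at 7.53, 42.4 and 17.9 at E7.5. The 1 muscle and heart miRNA tested (of 14), miR-133a-3p, rose in control from 22.6 to 81.0 normalized CPM to 129 to 404. Its E7.5 *Dnmt*-null values of 17.9 to 32.7 normalized CPM lay within those at E6.5.

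Among neural miRNAs 7 of 11 were tested. In control miR-219a-2-3p and miR-219b-5p rose, and both had a called difference. These entries had the same highest counts (1 in *Dnmt*-null, 528 in control) and may be 1 signal. In *Dnmt*-null 0 were called and miR-9-3p passed the study's thresholds as higher. miR-219a-2-3p, a miRNA of the oligodendrocyte lineage, was at 194.6 to 235 normalized CPM in E7.5 control and had 0 counts in all 3 E7.5 *Dnmt*-null libraries, whose depth allowed at most 3 counts each. miR-124-3p, the neuronal miRNA, was at 0 to 67.5 normalized CPM at E6.5 and at 75.1 to 96.4 at E7.5 in *Dnmt*-null (1.26 ± 0.85, adjusted p = 0.593). Of the endoderm list 5 of 11 were tested, with 0 called in *Dnmt*-null. In control miR-375-3p rose and miR-215-5p fell. The list's median log2 fold change was −0.20 in *Dnmt*-null and −0.92 in control, and its share of counts was 0.111 to 0.314% at E6.5 and 0.235 to 0.306% at E7.5 in *Dnmt*-null, against 0.0761 to 0.177% and 0.346 to 0.418% in control. miR-192-5p, of liver and gut epithelium, was its most abundant member in *Dnmt*-null, at 1412, 1868, 783 and 2040 normalized CPM at E6.5 and 1620, 1978 and 650 at E7.5, which overlapped. In control it was at 639 to 1450 and 389 to 722. miR-194-5p, of the same tissues, was at 0, 467, 67.5 and 354 normalized CPM and then 279, 210 and 121 in *Dnmt*-null, and at 99.3 to 364 and 48.7 to 190 in control. miR-375-3p, which marks endodermal and pancreatic epithelium, was also the 1 member past the study's thresholds in *Dnmt*-null. It stood at 42.8, 450, 108 and 262 normalized CPM at E6.5 and at 471, 510 and 2270 at E7.5 in *Dnmt*-null, with no overlap (2.24 ± 0.62, adjusted p = 0.107). In control it rose from 14.7 to 48.8 normalized CPM to 2772 to 3869 (7.05, adjusted p = 3.91e-06), so that the difference of −4.81 ± 0.94 was called (adjusted p = 0.00257).

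Blood and endothelial miRNAs served as a check on other cell types, with 10 of 17 tested, 0 called in *Dnmt*-null and 1, miR-142a-5p, lower in control. Their summed share was 0.042 to 0.196% at E6.5 and 0.12 to 0.145% at E7.5 in *Dnmt*-null, and 0.0663 to 0.0726% and 0.0535 to 0.085% in control. The red cell miRNA miR-451a was not among those tested. miR-142a-5p, of blood cells, was at 0, 900, 1133 and 1239 normalized CPM at E6.5 and 802 to 1035 at E7.5 in *Dnmt*-null, and at 200 to 239 and 4.67 to 60.1 in control. Its other arm, miR-142a-3p, had at most 2 counts in a *Dnmt*-null library. Endothelial miR-126a-3p was at 0 to 200 and 96.3 to 128 in *Dnmt*-null, and at 155 to 225 and 153 to 425 in control. The list's median log2 fold change was −0.47 in *Dnmt*-null and 0.57 in control. The part of blood and endothelial cells in the stage comparison was not tested.

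The *Sfmbt2* intronic cluster, a marker of extraembryonic tissue, followed the pattern of miR-290-295. Of 78 entries 38 were tested. In control 30 fell, in *Dnmt*-null 0 were called by edgeR (1, miR-669p-3p, passed the study's thresholds, as higher), and the difference was called for 11, all positive. The median log2 fold change was −2.74 in control and −0.56 in *Dnmt*-null. Without E6.5 *Dnmt*-null replicate 1 the difference was called for 17, all positive, and the *Dnmt*-null median was −0.39. Many entries of this cluster share reads or have identical counts, so that they are not independent and their counts are uncertain. miR-467a-3p had 492, 331, 202 and 277 normalized CPM at E6.5 and 260, 223 and 207 at E7.5 in *Dnmt*-null (−0.48 ± 0.49), against 339 to 1167 and 34.3 to 44 in control (−4.01), a difference of 3.53 ± 0.69 (adjusted p = 0.00257). miR-669a-5p had 769 to 1291 and 525 to 768 in *Dnmt*-null (−0.55 ± 0.45), and a difference of 2.43 that was lost in 6 of 14 leave-one-out fits (adjusted p up to 0.0853). miR-466a-3p, the most abundant, had 6737, 4960, 2051 and 1740 normalized CPM at E6.5 and 2690, 3417 and 1728 at E7.5 in *Dnmt*-null, and its difference of 2.18 was not called (95% interval 0.59 to 3.76, adjusted p = 0.0762). As a share of counts the cluster took 2.53, 2.65, 1.43 and 1.14% at E6.5 and 1.31, 1.71 and 0.84% at E7.5 in *Dnmt*-null. Control held 3.64, 5.43, 1.47 and 1.2% at E6.5 and 0.386 to 0.48% at E7.5. In both genotypes E6.5 replicates 1 and 2 were thus above replicates 3 and 4. What part Exe tissue left on the epiblast has in these shares was not tested.

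The germline X-linked cluster, known from the testis, had 23 of 34 entries tested, 0 called in *Dnmt*-null, 6 lower in control and 2 positive differences (miR-743a-3p and miR-883a-3p). Its median log2 fold change was 0.16 in *Dnmt*-null and −1.49 in control. It held 1.35 to 2.76% of counts at E6.5 and 1.69 to 2.37% at E7.5 in *Dnmt*-null, and 0.151 to 0.491% and 0.0997 to 0.277% in control. miR-470-5p was its most abundant member, at 7186, 5138, 3117 and 4557 normalized CPM at E6.5 and 4825, 4602 and 4362 at E7.5 in *Dnmt*-null. Control held 219 to 837 and 158 to 521.

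The *Dlk1-Dio3* miRNAs took 24.4, 31.1, 23.6 and 26.1% of all counts in E6.5 and 24.8, 24.1 and 20.8% in E7.5 *Dnmt*-null Epi, against 13.5 to 15.2% and 13 to 13.8% in control. Between *Dlk1* (chr12:109452485-109463336) and *Dio3* (chr12:110279230-110281097) lie 113 mature miRNAs of the table, of which 83 were tested. With stage in *Dnmt*-null, miR-541-5p was the single call, 4 miRNAs passed the study's thresholds as higher (miR-410-3p, miR-412-5p, miR-495-3p and miR-666-5p) and 4 as lower (miR-154-3p, miR-485-5p, miR-540-3p and miR-541-5p) against 6.12% and 4.22% over all miRNAs, and 45 fold changes were positive and 38 negative. The libraries did not overlap for 12 with E7.5 above and 3 with E7.5 below, against 8.44% and 3.16% over all miRNAs. The median log2 fold change was 0.07 in *Dnmt*-null and −0.28 in control, where 2 rose and 6 fell. Differences were called for 2 in each direction, positive for miR-376b-3p and miR-543-3p and negative for miR-540-3p and miR-541-5p. These numbers changed without E6.5 *Dnmt*-null replicate 1. In *Dnmt*-null 2 then rose and 2 fell, beside 6 and 3 over all 473 tested. The study's thresholds were passed by 10 as higher and 6 as lower, beside 49 and 34. Differences were positive for 9 and negative for 2, beside 48 and 29.

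miR-127-3p, which is antisense to *Rtl1*, was the most abundant member, at 64890, 94012, 48789 and 71338 normalized CPM at E6.5 and 61500, 47091 and 45185 at E7.5 in *Dnmt*-null. The stages overlapped (−0.44 ± 0.18, adjusted p = 0.325). Control was at 24984 to 30077 and 29757 to 33260. miR-409-3p had the opposite order, at 22393 to 29860 normalized CPM at E6.5 and 28224 to 35329 at E7.5 in *Dnmt*-null (0.35 ± 0.15, adjusted p = 0.351), while control stayed between 16141 and 18901. The other arm, miR-409-5p, was at 7806 to 10138 and 7258 to 8967 in *Dnmt*-null. Both arms of miR-369 had every E7.5 library above every E6.5 library, miR-369-3p at 0, 127, 229 and 239 against 289 to 339 normalized CPM (0.99 ± 0.72) and miR-369-5p at 21.4, 518, 553 and 716 against 732 to 930 (0.81 ± 0.55). Neither passed the test, and in both the lowest value came from E6.5 replicate 1.

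The miRNAs that the study deleted together (let-7b and 5 *Dlk1-Dio3* genes) were chosen by the study on *Dnmt*-null embryos, so that they are not independent evidence of a direction. Of their 12 mature forms 11 were tested, 1 fell and 0 rose in *Dnmt*-null, and 2 rose in control. miR-541-5p and miR-540-3p were the 2 with a called difference. Without E6.5 *Dnmt*-null replicate 1, 2 of the 11 fell and 0 rose in *Dnmt*-null, and 1 positive and 2 negative differences were called. As a share the set held 11.7 to 16.7% of counts at E6.5 and 9.23 to 11.6% at E7.5 in *Dnmt*-null, every E7.5 value below every E6.5 value, and 5.07 to 5.69% and 6.04 to 6.52% in control, where the order was the opposite. let-7b-5p itself was uneven, at 0, 705, 108 and 0 normalized CPM at E6.5 and 7.53, 139 and 17.9 at E7.5.

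Of the other imprinted loci 8 of 10 miRNAs were tested, and 1 rose in *Dnmt*-null (miR-298-5p), while both arms of miR-298 passed the study's thresholds as higher and miR-335-3p and both arms of miR-483 as lower. In control miR-298-5p and miR-483-3p rose, and the differences of both miR-483 arms were called, both negative. miR-483-5p, in an intron of *Igf2*, was at 1198, 0, 40.5 and 38.5 normalized CPM in E6.5 *Dnmt*-null and had 0 counts in all 3 E7.5 libraries, whose depth allowed at most 3 counts each. In control it was at 33.9 to 353 and 575 to 777. Without E6.5 *Dnmt*-null replicate 1, the library with 1198, the fitted difference of miR-483-5p was −9.01 (adjusted p = 0.025). The other arm, miR-483-3p, had 0, 8.49, 0 and 23.1 normalized CPM at E6.5 and 0 in all E7.5 *Dnmt*-null libraries, against 874 to 892 in E7.5 control. Both arms were thus not detectable in E7.5 *Dnmt*-null Epi at a depth that exceeded that of the E6.5 *Dnmt*-null libraries. miR-296-3p of the *Gnas* region was at 642 to 1664 and 1121 to 1731 normalized CPM in *Dnmt*-null. miR-335-3p, in an intron of *Mest*, was at 9967, 9231, 4506 and 6951 normalized CPM and 5258, 3976 and 5362 (−0.66 ± 0.29, adjusted p = 0.362).

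The X-linked miR-322/miR-503 cluster, which restrains the cell cycle in differentiating cells, had 10 of 13 entries tested. In control 5 rose (both arms of miR-351 and miR-503, and miR-322-3p). In *Dnmt*-null 0 were called by edgeR, 1 passed the study's thresholds as lower (miR-351-3p), and the differences of both miR-351 arms were called. Its median log2 fold change was 1.99 in control and 0.35 in *Dnmt*-null. Without E6.5 *Dnmt*-null replicate 1, 0 members passed the study's thresholds, 4 differences were called, all negative, and the *Dnmt*-null median was 0.12. miR-351-5p held 257, 892, 890 and 608 normalized CPM at E6.5 and 486, 1208 and 1025 at E7.5 in *Dnmt*-null (0.44 ± 0.40), against 451 to 740 and 3788 to 5628 in control (2.83), a difference of −2.39 ± 0.56 (adjusted p = 0.0116). miR-351-3p was at 727, 119, 81.0 and 69.3 and then 52.7 to 61.6 in *Dnmt*-null (−2.02 ± 0.73, adjusted p = 0.225), with E6.5 replicate 1 far above its group. Its difference was −5.22 (adjusted p = 0.00257), and −3.88 without that library, where the *Dnmt*-null change was −0.60 (adjusted p = 0.469). miR-503-5p was at 0 to 40.5 normalized CPM at E6.5 and 25 to 67.8 at E7.5 in *Dnmt*-null.

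Of the epithelial miR-200 family 8 of 9 were tested, with 0 called in *Dnmt*-null and 1, miR-200a-3p, lower in control. Its most abundant member, miR-200c-3p, was at 2887 to 4223 normalized CPM at E6.5 and 4128 to 4809 at E7.5 in *Dnmt*-null (0.31 ± 0.20, adjusted p = 0.57). In the miR-183/miR-96/miR-182 cluster 5 of 6 were tested, 0 were called in *Dnmt*-null and 1, miR-96-5p, fell in control. Its median log2 fold change was −0.45 in *Dnmt*-null and −0.61 in control, and the median of the differences was 0.75. For the 2 most abundant members the fold changes of the genotypes were close. miR-183-5p had 12408 to 15335 and 9703 to 10377 normalized CPM in *Dnmt*-null, without overlap (−0.45 ± 0.16, adjusted p = 0.225), and −0.44 in control (adjusted p = 0.0567). miR-182-5p had −0.38 ± 0.17 and −0.40 (difference 0.02, 95% interval −0.47 to 0.51). E6.5 *Dnmt*-null replicate 1 lay far from its group for miR-182-5p (17450 normalized CPM), and values without that library are not given here. As a share the cluster held 3.78 to 4.66% and 2.89 to 3.27% in *Dnmt*-null, and 3.65 to 4.43% and 2.80 to 3.05% in control.

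Further miRNAs that were lower at E7.5 without overlap in *Dnmt*-null and fell in control were picked after their values were seen. miR-672-5p was at 856, 730, 715 and 493 normalized CPM at E6.5 and 86.6, 181 and 96.4 at E7.5 in *Dnmt*-null, with no overlap (−2.50 ± 0.64, adjusted p = 0.0699), and fell in control (−3.59, adjusted p = 6.78e-04). Its difference was 1.08 (95% interval −0.66 to 2.83, adjusted p = 0.433). miR-21a-5p was at 866 to 1262 and 321 to 562 normalized CPM in *Dnmt*-null (−1.19 ± 0.34, adjusted p = 0.127) and fell in control (−1.29, adjusted p = 0.0093). Its difference was 0.10, with an interval of −0.87 to 1.08. The p53-linked miR-34 family had 3 of 10 tested, 0 called and 1 higher by the study's thresholds in *Dnmt*-null and 1 higher in control. That member, miR-34b-3p, went from 0, 102, 0 and 0 normalized CPM to 298, 194.6 and 143 in *Dnmt*-null (2.82 ± 0.93, adjusted p = 0.18) and from 22.5 to 92.0 to 310 to 568 in control (3.14, adjusted p = 0.0104). Its difference was −0.32, with a wide interval of −2.97 to 2.33.

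Among the remaining families no call was made in *Dnmt*-null. Of the let-7 and miR-98 family, which opposes pluripotency, 8 of 22 were tested, and let-7c-5p and let-7f-5p passed the study's thresholds as lower. let-7f-5p was at 535, 900, 324 and 92.4 normalized CPM and then 30.1, 156 and 132 (−2.11 ± 0.69, adjusted p = 0.175). Of the miR-23/miR-27/miR-24 clusters 7 of 11 were tested, with miR-23b-3p and miR-24-3p higher by the study's thresholds and miR-27b-3p lower in control. miR-24-3p was at 0 to 42.5 normalized CPM and then 100 to 166 (2.09 ± 0.67, adjusted p = 0.173). Of the miR-30 family 11 were tested, with miR-30c-1-3p and miR-30d-5p higher by the study's thresholds and miR-30d-5p higher in control. Without E6.5 *Dnmt*-null replicate 1, 0 of the 11 passed these thresholds in *Dnmt*-null. The miR-130/miR-301 family had 8 tested and 1 higher in control, miR-130b-5p, whose *Dnmt*-null values were 796 to 1410 and 1328 to 1763 normalized CPM (0.50 ± 0.27). The miR-29 and miR-148/miR-152 families, which can target DNMT transcripts, had 5 of 13 tested and 1, miR-148a-5p, higher by the study's thresholds. The miR-15/miR-16/miR-195 family (6 of 12 tested) and the miR-181 family (6 of 10 tested) had no call in any of the 3 comparisons.

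The miR-99/100 and miR-125 families had 7 of 9 tested, 2 lower in control (miR-99b-5p and miR-125a-3p) and 1 called difference. That was miR-99b-5p, at 29387, 21333, 15449 and 16435 normalized CPM at E6.5 and 26085, 28005 and 23815 at E7.5 in *Dnmt*-null (0.33 ± 0.20) and −0.75 in control, a difference of 1.08 ± 0.29 (adjusted p = 0.025) that was lost in 7 of 14 leave-one-out fits (adjusted p up to 0.0871). miR-125a-5p was at 3548 to 15656 and 10689 to 24217 (0.94 ± 0.48, adjusted p = 0.457). Of 3 entries that miRBase holds with low confidence, 0 were called in *Dnmt*-null and 1, miR-5099, rose in control. miR-5099 took a large part of the counts, at 94897, 32017, 68447 and 48983 normalized CPM at E6.5 and 68171, 36518 and 57337 at E7.5 in *Dnmt*-null.

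**Figure D4:**
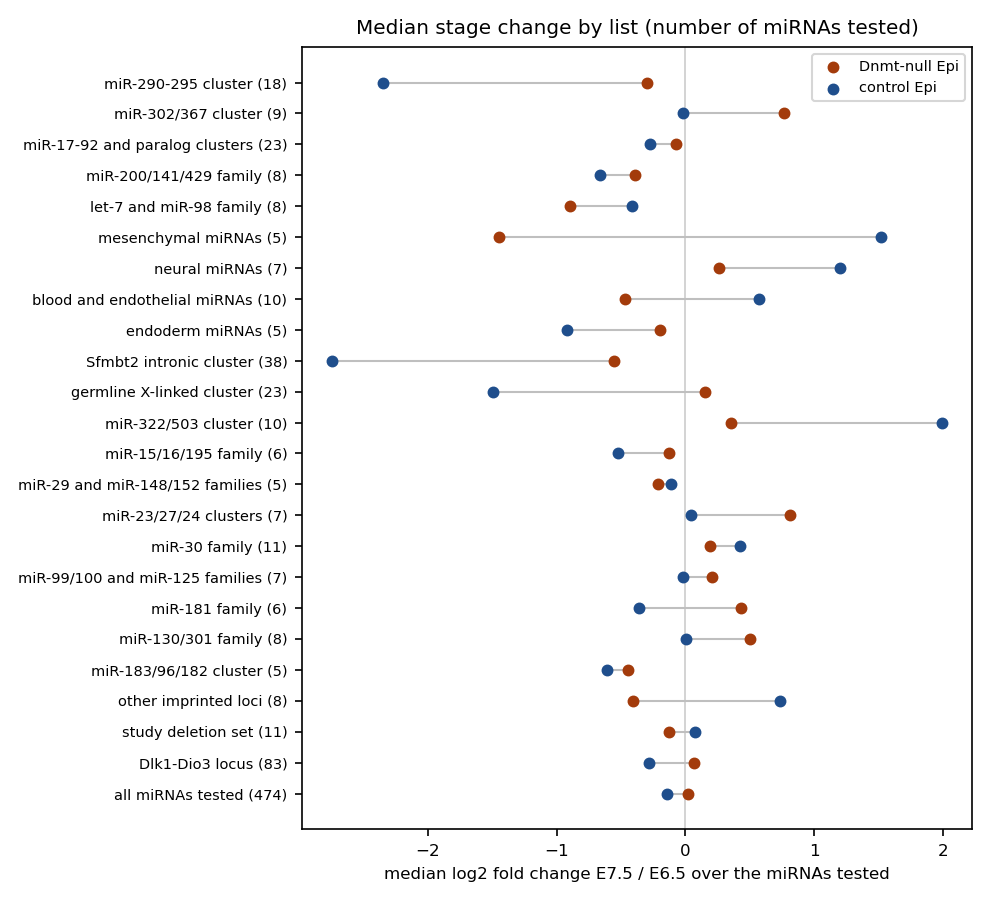
Each line joins the median log2 fold change from E6.5 to E7.5 of 1 list in *Dnmt*-null (red) and control Epi (blue), for lists with the number of miRNAs tested in brackets and for all 474. Lists with fewer than 5 miRNAs tested, the *Hox* list among them, are not drawn. The *Sfmbt2* (−0.56 against −2.74) and miR-290-295 (−0.30 against −2.35) lists lie far lower in control. The miR-322/miR-503 (0.35 against 1.99) and mesenchymal (−1.45 against 1.52) lists lie far higher.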

How the data were processed

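Small RNA libraries were made by CAS-seq, in which Cas9 cuts adapter dimers, from Epi RNA of 7 *Dnmt*-null and 7 control embryo samples. The authors used fastp 0.20.1 for trimming and, with GRCm38 as the build, Bowtie 1.2.1.1 for mapping, and deposited the raw counts of 1504 mature miRNAs (miRBase). The authors used DESeq2 1.30.1. Their other deposited tables were not used here. Groups follow the sample titles.

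From these counts, TMM-normalized CPM, log2 fold changes and shares were computed. Entries with low counts were removed by filterByExpr (minimum count 10), which left 474, and edgeR 4.0.16 (R 4.3.3) fitted the 4 groups together with its quasi-likelihood test. Calls need a Benjamini-Hochberg adjusted p under 0.05. The difference of the stage changes is a contrast in the same fit. A prior count of 2 was used for log2 CPM. The steps were tested on simulated data. Sequences were matched for 1275 of 1504 entries. The libraries of a group differed by far more than counting noise (lowest chi-square per degree of freedom 10.5), so that none was a copy. In the fit, 49 entries in 24 groups had identical counts.

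Named miRNAs are the 5 most abundant, those called with stage in *Dnmt*-null, the 10 with the smallest adjusted p for the difference, up to 4 members of each list with the smallest p and the 2 most abundant, and the miRNAs deleted by the study; of the list members, values are given for those with the higher counts. Members behind counts of 5 or fewer are named after their values were seen. Members, lists and this rule were chosen with earlier results of these data known. Alternatives changed the scaling, filter, tool, libraries fitted, depth and single libraries.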

Additional observations from a re-analysis of the deposited data

Results flagged for a closer look

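Dixon's test was run only on the 4 libraries of E6.5 *Dnmt*-null Epi, over 80 measures (named miRNAs, list shares and library measures). In 10 of these measures 1 library lay far from the others. The other groups were not checked. The measures come from the same libraries and are not independent, so that no chance rate applies to them. Replicate 1 was the library in 7 of them, all in normalized CPM: miR-92a-3p (119300), miR-295-3p (16920), miR-295-5p (2716), miR-351-3p (727.2), miR-483-5p (1198), miR-182-5p (17450) and miR-199a-3p (727.2). It was also the shallowest library, with 45242 counts. Replicate 3 stood apart for miR-10b-5p (620.6 normalized CPM) and for the summed *Hox* cluster share (0.0765%), and replicate 2 for miR-34b-3p (101.9 normalized CPM, the others at 0).

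For 22 named miRNAs the stage change differed between *Dnmt*-null and control by the contrast itself (log2 difference, edgeR). The differences were positive in the miR-290-295 cluster, with 5.18 for miR-291b-5p, 2.44 for miR-294-3p, 2.42 for miR-292a-5p, 1.89 for miR-295-5p, 1.81 for miR-290b-3p, 1.80 for miR-295-3p, 1.57 for miR-291a-5p and 1.28 for miR-293-3p. They were positive too for miR-467a-3p (3.53), miR-669a-5p (2.43) and miR-99b-5p (1.08). Negative differences were found for miR-541-5p (−1.62) and miR-540-3p (−3.12) of *Dlk1-Dio3*, for miR-92a-3p (−0.80) and miR-92b-3p (−2.89), and for the lineage miRNAs miR-10a-5p (−9.09), miR-10b-5p (−5.63), miR-375-3p (−4.81), miR-351-3p (−5.22), miR-351-5p (−2.39) and miR-199a-3p (−5.80). For miR-483-5p the fitted difference of −12.33 depends on the prior count, because all E7.5 *Dnmt*-null libraries had 0 counts. It was −9.01 (adjusted p = 0.025) without E6.5 *Dnmt*-null replicate 1.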

How the results depend on the processing

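The number of miRNAs called with stage in *Dnmt*-null Epi (3) was 0 with TMM factors computed without the miR-290-295, miR-302/miR-367 and *Dlk1-Dio3* miRNAs (53 at an unadjusted p under 0.05) and 0 with only the *Dnmt*-null groups fitted (17 of 307 unadjusted). It was 14 without a filter, 14 with all genotypes of Epi fitted, 27 with DESeq2, 49 under the study's thresholds and 0 to 9 leaving out 1 library. With the replicate number as a block it was 6, including the same 3. Between the stages, deviations of same-numbered libraries correlated at 0.02 to 0.162 in *Dnmt*-null and −0.0691 to 0.136 in control. Those of differently numbered libraries correlated at −0.167 to 0.0909 and −0.124 to 0.076. These ranges overlap, and whether the numbers pair the libraries between the stages was not settled. Between the genotypes, deviations of same-numbered libraries correlated at 0.0831 to 0.251 at E6.5 and −0.00993 to 0.0637 at E7.5. With the term for E6.5 replicates 1 and 2 against 3 and 4 the counts were 7 in *Dnmt*-null, 129 in control and 69 differences. The count in control (115) was 75 after thinning and 82 to 165 leaving out 1 library. RLE scaling shifted the median of all control fold changes by 0.27 and split its 111 calls into 55 higher and 56 lower, against 42 and 73. The count of differences (45) was 116 under the study's thresholds, 26 after thinning, 86 with DESeq2 and 23 to 77 leaving out 1 library, the most without E6.5 *Dnmt*-null replicate 1. RLE split 47 differences into 24 positive and 23 negative, against 30 and 15. Fold changes near 0 in *Dnmt*-null turned sign. miR-291a-5p was 0.0173 with RLE, 0.0729 with the restricted TMM, 0.0340 without a filter, 0.0630 with all genotypes, 0.170 with identical entries merged (an alternative chosen after seeing the data), 0.0165 with DESeq2 and −0.10 to 0.27 leaving out 1 library. miR-293-3p was 0.0118, 0.0568, 0.0287, 0.0562, 0.171 and 0.0113 under the same settings, 0.0101 with the block and −0.14 to 0.33 leaving out 1 library. miR-295-3p was 0.0106 with identical entries merged. Leaving out 1 library, the range was −0.34 to 0.10 for miR-295-3p, −0.35 to 0.0321 for miR-295-5p, −0.66 to 0.16 for miR-292a-5p, −2.59 to 0.46 for miR-10b-5p, −0.0438 to 0.51 for miR-302a-5p and −0.00059 to 0.58 for miR-290b-3p. The cause of these changes was not tested. Depth limits miRNAs under about 64.2 normalized CPM, the level of 3 counts in the shallowest library.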
